A study of Homo sapiens with 9 samples.

Results

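The mRNAs of 35 nucleolar and ribosome biogenesis factors were followed in Huh7 cells in which IMPDH1 or IMPDH2 had been knocked down. The members were taken by gene symbol from the deposited table of 58684 genes, and each had to have 10 or more counts in at least 3 of the 9 libraries. All 35 were in the table and had 10 or more counts in 9 of 9 libraries, from 1188 to 84357 counts per library. They are 7 GTP-binding assembly factors, 3 scaffold and chaperone proteins, 5 snoRNP proteins, 2 rRNA-modifying enzymes, 5 factors linked to RNA polymerase I, 3 subunits of the PeBoW complex, and 6 and 4 further factors of the large and the small subunit.

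Huh7 is an established human hepatocellular carcinoma line. Cells of 3 groups were infected with pLKO.1 lentivirus carrying a short hairpin RNA and selected with puromycin: hairpin RNA of a control (shControl), against IMPDH1 (shIMPDH1) or against IMPDH2 (shIMPDH2), with 3 libraries of each. All 3 groups therefore carry the vector and passed the same drug selection, no cloning step is described, and neither the hairpin sequences nor their number per gene are in the sources used here, so an effect of a hairpin and one of its target gene cannot be told apart. The series text calls the replicates biological without saying how their cultures were separated, so every p-value reflects no more than the spread among these 9 libraries. IMPDH1 and IMPDH2 are the isozymes of inosine monophosphate dehydrogenase, the rate-limiting step from inosine monophosphate to guanine nucleotides.

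Ribosomes are built in the nucleolus, where RNA polymerase I makes the long precursor of 18S, 5.8S and 28S rRNA. Box C/D and box H/ACA snoRNPs guide methylation and pseudouridylation of that precursor, endonucleases and exonucleases cut it, and assembly GTPases, helicases and export factors fold the pre-40S and pre-60S particles and carry them to the cytoplasm. Guanine nucleotides are used both as building blocks of rRNA and by the GTPases, and nucleostemin (GNL3) is known for a nucleolar location that depends on GTP. The libraries are of polyadenylated RNA, so neither rRNA nor the location of any protein was measured.

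The levels below are CPM (library size-scaled counts, with TMM factors) from libraries of 44560837 to 58370328 counts, in which 3 counts were worth 0.0519 to 0.0674 CPM. The words rose, fell and called are kept for genes whose adjusted p was below 0.05 by edgeR's quasi-likelihood test over 17396 genes. The targeted genes followed their labels, with IMPDH1 lower by a log2 of -1.36 in shIMPDH1 and IMPDH2 by -1.05 in shIMPDH2. The isozyme not targeted rose, IMPDH2 by 0.27 (adjusted p = 3.49e-10) in shIMPDH1 and IMPDH1 by 0.17 (adjusted p = 4.86e-04) in shIMPDH2. The 10 hepatocyte markers examined were at 58.5 to 12781 CPM, ALB and AFP among the highest, while HBB of blood cells and KDR of endothelium were at 0 in every library and DCN of fibroblasts was at or below 0.061 CPM. Of the 6 blood cell, 6 fibroblast and 5 endothelial markers listed, LYZ reached 1345 CPM, COL1A2 86.3, PDGFRB 13.9 and PECAM1 13.3 at most, and the part of other cells in the results was not tested. ShControl replicate 1 and shIMPDH2 replicate 1 stood apart from the other libraries of their groups, with a mean chi-square per gene of 5.80 and 6.99 and of 3.83 and 3.93 against them, while the other pairs within groups lay between 1.80 and 2.41. ShControl replicate 1 was also the lowest library of its group for 25 of the 35 members, and the counts against shControl are therefore also given without it. In a bulk sample, fewer cells of a kind and less RNA per cell cannot be told apart.

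To show what the start sites of these genes look like, 30 bases around a CACGTG E-box are printed for some members. All of those shown but GNL2 were called against shControl. PES1, EBNA1BP2 and NOP2, also called, and RRP9 and LTV1, not called, have an E-box too and are not shown. The E-box is the sequence bound by MYC with MAX and by related factors, and the capitals mark it. Each stretch is read 5′ to 3′ along the gene from RefSeq promoter windows (GRCh38.p14), and lies on the chromosome and strand given with it.
GNL3, chr3:52686026-52686055, forward strand: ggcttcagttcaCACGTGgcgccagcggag
WDR43, chr2:28894658-28894687, forward strand: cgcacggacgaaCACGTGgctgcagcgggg
FBL, chr19:39846356-39846385, reverse strand: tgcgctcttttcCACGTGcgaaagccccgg
MYBBP1A, chr17:4555340-4555369, reverse strand: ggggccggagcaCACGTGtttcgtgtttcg
PNO1, chr2:68157885-68157914, forward strand: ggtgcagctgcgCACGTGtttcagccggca
DDX21, chr10:68956604-68956633, forward strand: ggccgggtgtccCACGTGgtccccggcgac
NAT10, chr11:34105602-34105631, forward strand: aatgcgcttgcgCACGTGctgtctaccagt
GNL2, chr1:37595917-37595946, reverse strand: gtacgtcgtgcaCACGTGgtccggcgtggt

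An E-box was in the windows of 13 of the 29 members that matched a RefSeq window, which runs from 250 bases before to 50 bases after a start. NOLC1, BOP1, NOP58, RRP12, RRS1 and RRP1B had no match. CACGTG reads the same on both strands, and it was in 14 of 33 member windows (42.4%) and in 2548 of all 35116 windows (7.26%). Of the 14 E-boxes, 13 lay within 50 bases of the start. An ETS-type CCGGAAG on either strand was in 11 member windows (33.3%, against 10.26% of all windows), and the palindromic NRF1-type motif, shown in capitals for NOB1, in 3 (9.1% against 1.24%). TATAAA was in 1 member window (3.0%), that of LTV1, and in 11.53% of all. NOB1, which rose most of all members in shIMPDH1, has the NRF1-type motif at 141 and at 16 bases before its start, in capitals in these 160 bases.
NOB1, chr16:69754927-69755086, reverse strand: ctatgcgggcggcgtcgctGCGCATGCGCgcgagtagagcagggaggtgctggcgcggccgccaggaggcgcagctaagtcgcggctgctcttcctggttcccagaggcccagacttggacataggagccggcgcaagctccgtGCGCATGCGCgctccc

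Members with and without an E-box were among those that rose. Of the 13 with one, 6 rose and 0 fell under the IMPDH1 hairpin, while 5 rose and 1 fell under the IMPDH2 hairpin. For the 16 matched members without one, the counts were 12 and 3, and 8 and 1. Of all tested genes, 20.6% rose and 22.8% fell under the IMPDH1 hairpin, and 18.6% and 19.9% under the IMPDH2 hairpin. The shares among tested genes of 10 to 1000 CPM were 27.6% and 30.1%, and 25.8% and 25.7%. Without shControl replicate 1 the rises under the IMPDH2 hairpin numbered 3 with an E-box and 4 without, and those under the IMPDH1 hairpin 6 and 11. In that fit 2890 of 17769 tested genes rose under the IMPDH2 hairpin and 3374 under the IMPDH1 hairpin. A match of letters is a description of the window and not a measured binding site.

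Against shControl, most of the mRNAs rose slightly in shIMPDH1 and fewer did so in shIMPDH2. The members had been chosen with earlier results of these data known. Their counts beside the shares of all genes are therefore a description and no independent test. In shIMPDH1, 24 of the 35 rose, 3 fell (TSR1, LSG1 and GTPBP4) and 8 were not called, beside 20.6% of all tested genes that rose and 22.8% that fell. Among the 9285 tested genes of 10 to 1000 CPM, the range that holds most members, the shares were 27.6% and 30.1%. The median log2 change of the members was 0.14, which is 10.5%, and that of all genes 0.003, with single members from -0.09 to 0.32. Every shIMPDH1 library was above every shControl library for 26 members and below for 3, beside 24.9% and 26.8% of all genes. Without shControl replicate 1 the count was 22 that rose and 3 that fell, beside 3374 and 3786 of 17769 tested genes. The count that fell was 1 when shControl replicate 2, shIMPDH1 replicate 1 or shIMPDH1 replicate 3 was left out, and also under upper-quartile scaling. In shIMPDH2, 15 members rose, 2 fell (HEATR1 and NAT10) and 18 were not called, beside 18.6% and 19.9% of all genes and 25.8% and 25.7% of the genes of 10 to 1000 CPM. The median member changed by 0.04, or 2.78%, and all genes by 0.01, and the members ranged from -0.17 to 0.17. Here 17 members lay wholly above shControl and 2 wholly below, beside 23% and 23.7% of all genes. Without shControl replicate 1, 9 members rose and 2 fell, beside 2890 and 3248 of 17769 tested genes.

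**Figure D1:**
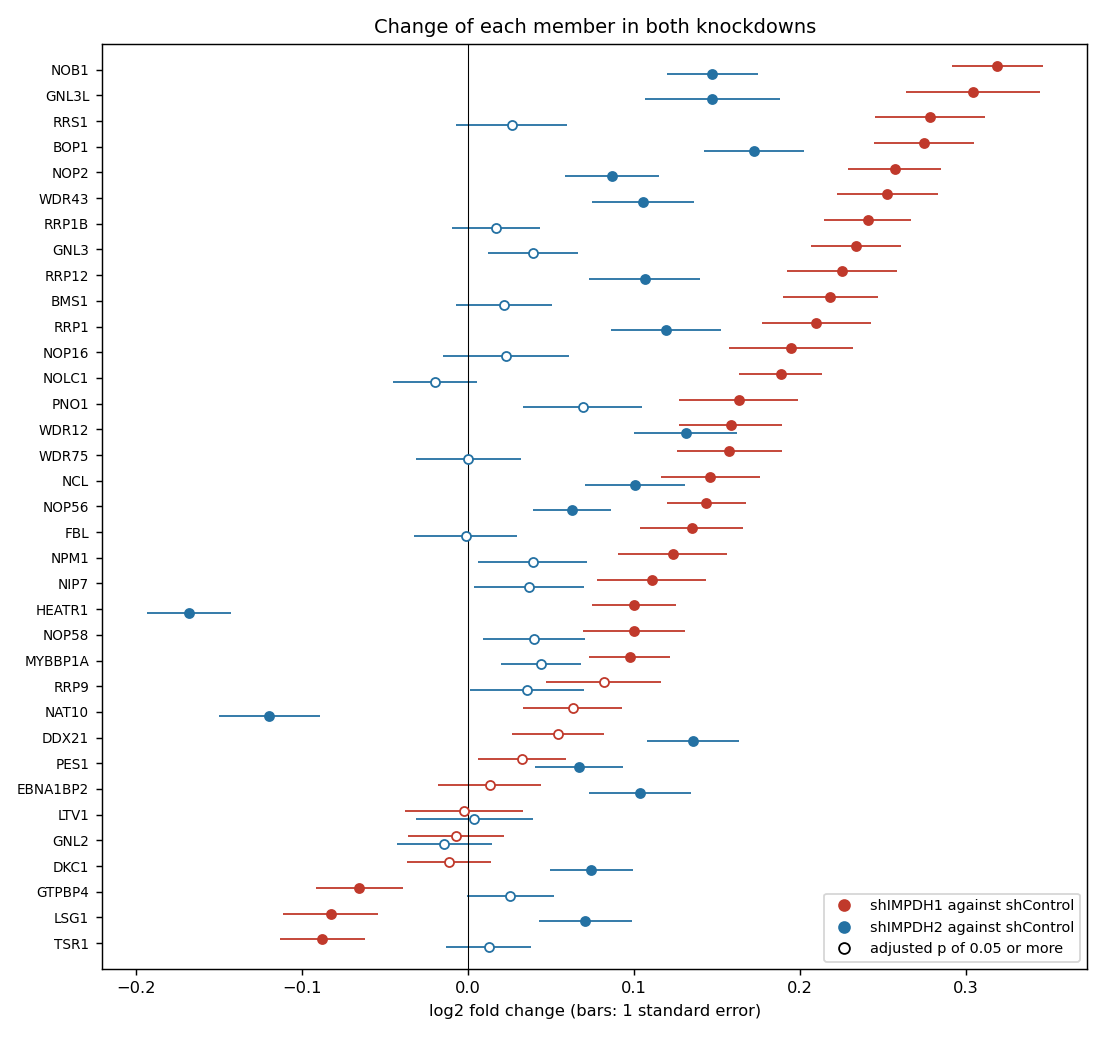
Log2 fold change against shControl of each of the 35 members in shIMPDH1 (red) and shIMPDH2 (blue), with bars of 1 standard error, ordered by the change in shIMPDH1; open points were not called. The red points reach from -0.09 (TSR1) to 0.32 (NOB1), and HEATR1 and NAT10 are the blue points far to the left of 0.

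The knockdowns share the shControl libraries, so their values are set side by side, and shIMPDH2 was also compared with shIMPDH1 directly. Of the members, 10 rose in both, 13 rose in shIMPDH1 and were not called in shIMPDH2, and 4 (DKC1, DDX21, PES1 and EBNA1BP2) rose in shIMPDH2 and were not called in shIMPDH1. Without shControl replicate 1 these counts were 7, 14 and 2, as NCL, NOP56, WDR43, DKC1, PES1 and LSG1 lost their call in shIMPDH2 and NOP58 and NIP7 theirs in shIMPDH1. How many of all tested genes had the same pairs of calls was not computed, so whether these member counts stand out is not known. HEATR1 rose in shIMPDH1 and fell in shIMPDH2, and LSG1 fell in shIMPDH1 and rose in shIMPDH2. In the direct comparison 20 members were lower in shIMPDH2, 6 were higher and 9 were not called, beside 22.2% and 21.7% of all genes lower and higher. The median member was lower by a log2 of -0.09, against -0.01 for all genes. The members higher in shIMPDH2 were LSG1, TSR1, GTPBP4, DKC1, DDX21 and EBNA1BP2. Of the 10 mRNAs that rose in both knockdowns, 8 were lower in shIMPDH2 than in shIMPDH1, and NCL and WDR12 were not called between them. Without shIMPDH2 replicate 1 and shControl replicate 1 together, a setting added after the data were seen, the direct comparison gave 23 lower and 6 higher members.

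**Figure D2:**
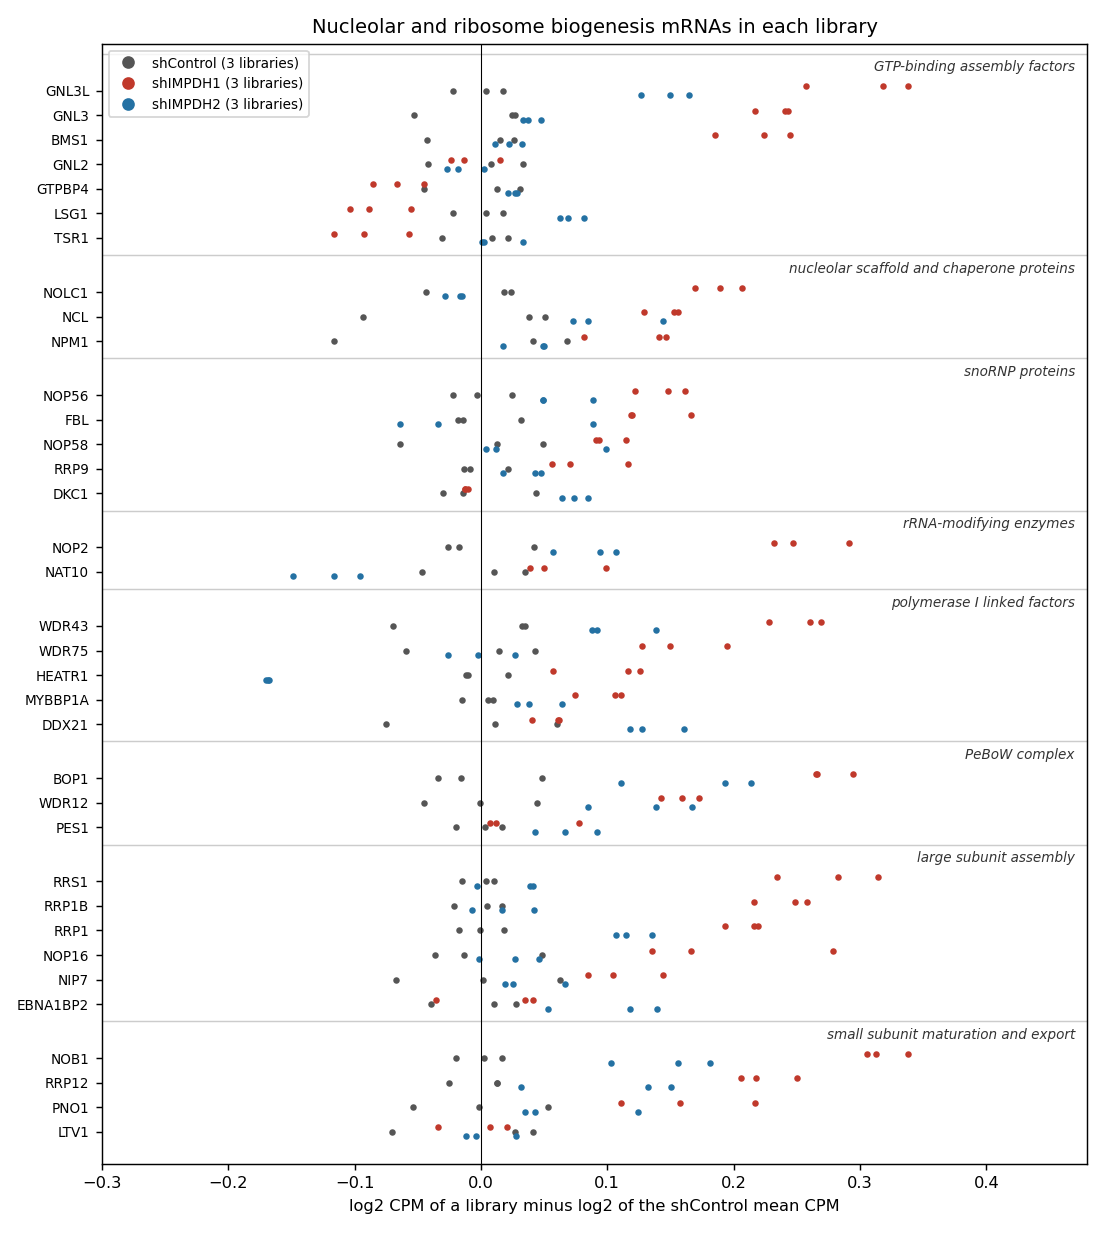
Log2 CPM of each library minus the log2 of the mean shControl CPM for every member, grouped by role; each point is 1 library of shControl (grey), shIMPDH1 (red) or shIMPDH2 (blue). The shIMPDH1 points lie to the right of shControl for 26 of the 35 members and to the left for 3.

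The members together took 0.672, 0.697 and 0.693% of all counts in the shControl libraries, 0.744, 0.745 and 0.746% in shIMPDH1, and 0.737, 0.719 and 0.715% in shIMPDH2. Every library of both knockdowns was above all shControl libraries, and every shIMPDH1 library above all shIMPDH2 libraries. The libraries of a group lay close together, with a median coefficient of variation over the members of 2.59% in shControl, 1.72% in shIMPDH1 and 1.66% in shIMPDH2, so changes under 10% passed the test. The share of counts from mitochondrial genes was 4.55 to 5.54% in shControl, 5.09 to 5.25% in shIMPDH1 and 4.40 to 4.51% in shIMPDH2, and its part in the members' values was not tested.

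The GTP-binding factors split by the member and did not move together: in shIMPDH1 3 of the 7 rose, 3 fell and GNL2 was not called. GNL3, or nucleostemin (chr3:52681156-52694492, forward strand), is a GTPase of stem and tumour cell nucleoli that also acts in pre-60S assembly. It was at 119, 126 and 126 CPM in shControl, 143, 146 and 146 in shIMPDH1 and 128, 127 and 126 in shIMPDH2. The shIMPDH1 libraries were above all others, and the shIMPDH2 libraries lay just above shControl without overlap. The log2 change was 0.23 (SE 0.027, adjusted p = 6.54e-08) in shIMPDH1 and 0.04 (SE 0.027, adjusted p = 0.277) in shIMPDH2. GNL3L, its paralog, was lower in level and moved most of the 7, with 24.8, 25.3 and 25.5 CPM in shControl, 31.4, 31.9 and 30.1 in shIMPDH1 and 28.0, 28.3 and 27.5 in shIMPDH2. The 3 groups did not overlap, and GNL3L rose by 0.30 (SE 0.040, adjusted p = 6.30e-07) in shIMPDH1 and by 0.15 (SE 0.041, adjusted p = 0.00509) in shIMPDH2. BMS1 is the GTPase of the small subunit processome, and it was at 89.0, 92.7 and 93.4 CPM in shControl, 104, 109 and 107 in shIMPDH1 and 92.4, 93.1 and 93.8 in shIMPDH2. It rose in shIMPDH1, by 0.22 (SE 0.029, adjusted p = 5.22e-07), and its shIMPDH2 value was 0.02 (SE 0.029, adjusted p = 0.60). The 15 BMS1 pseudogene rows of the table hold up to 20% as many counts as BMS1, so its reads can be split among copies.

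The other large subunit GTPases went the opposite way or did not pass the test. GNL2 removes itself from the nuclear pre-60S particle before export, and it stood at 92.1, 97.0 and 95.3 CPM in shControl, 93.2, 93.9 and 95.8 in shIMPDH1 and 93.6, 95.0 and 93.0 in shIMPDH2. All 3 groups overlapped, and the 95% intervals of its log2 change were -0.06 to 0.05 in shIMPDH1 and -0.07 to 0.04 in shIMPDH2. GTPBP4, the counterpart of yeast Nog1, was at 146, 154 and 152 CPM in shControl, 144, 142 and 146 in shIMPDH1 and 154, 153 and 154 in shIMPDH2. Its fall in shIMPDH1 was small, at -0.07 (SE 0.026, adjusted p = 0.046), and the call was lost without shControl replicate 2 (0.198), shControl replicate 3 (0.12), shIMPDH1 replicate 1 (0.101), shIMPDH1 replicate 2 (0.159) and shIMPDH1 replicate 3 (0.0529), as well as with RLE (0.0533), upper-quartile scaling (0.126) and DESeq2 (0.0585). LSG1 is the cytoplasmic GTPase that frees the export adaptor NMD3 from the nearly finished large subunit. It was at 85.3, 87.7 and 86.9 CPM in shControl, 81.4, 83.3 and 80.6 in shIMPDH1 and 90.5, 91.7 and 90.8 in shIMPDH2, with the shIMPDH1 libraries lowest and the shIMPDH2 libraries highest. Its change was -0.08 (SE 0.028, adjusted p = 0.0197) in shIMPDH1 and 0.07 (SE 0.028, adjusted p = 0.0484) in shIMPDH2. The first call was lost without shControl replicate 2 (0.0784), shIMPDH1 replicate 1 (0.0608) and shIMPDH1 replicate 3 (0.0884), and the second without shControl replicate 1 (0.134), shControl replicate 3 (0.0869), shIMPDH2 replicate 1 (0.0571), shIMPDH2 replicate 2 (0.129) and shIMPDH2 replicate 3 (0.09). Upper-quartile scaling also ended both calls (0.0523 and 0.075), and the second was lost with no filter (0.142), with DESeq2 (0.0616) and with only the groups compared in the fit (0.0738). The difference between the knockdowns, 0.15 (SE 0.028, adjusted p = 6.48e-05), was called under all 16 alternatives. TSR1, which resembles a GTPase but is thought not to hydrolyse GTP and sits on late pre-40S particles, was at 189, 195 and 196 CPM in shControl, 179, 186 and 182 in shIMPDH1 and 198, 194 and 194 in shIMPDH2. It fell in shIMPDH1 by a log2 of -0.09 (SE 0.026, adjusted p = 0.00638) and was at 0.01 (SE 0.025, adjusted p = 0.745) in shIMPDH2. Exons of other genes on the opposite strand cover 20.8% of the exon bases of TSR1 and 19.1% of those of GTPBP4, and whether the counting used strand is not known here. SGSM2, opposite TSR1 and at a mean of 63.0 CPM, was at 0.01 in shIMPDH1 (adjusted p = 0.878) and -0.11 in shIMPDH2 (adjusted p = 0.027), and SRR, also opposite TSR1, was called in neither.

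**Figure D3:**
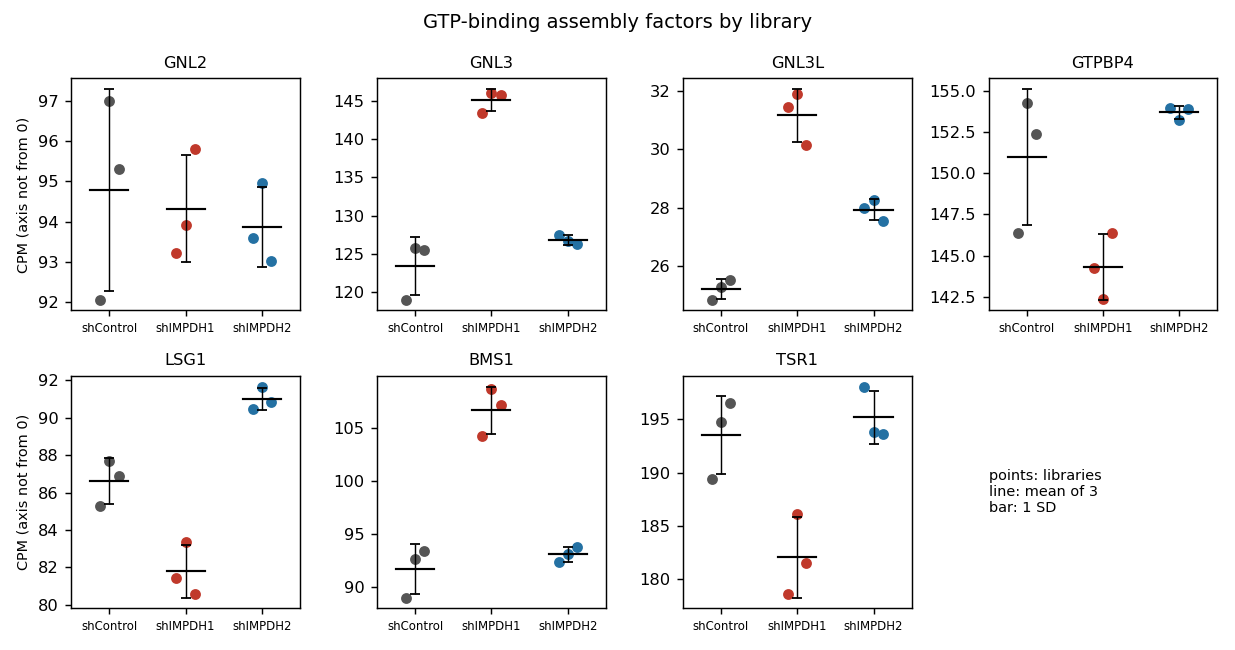
CPM of the 7 GTP-binding assembly factors in each of the 9 libraries, with the mean and 1 SD of the 3 libraries of a group; the axes do not start at 0. GNL3, GNL3L and BMS1 are highest in shIMPDH1, LSG1 and TSR1 lowest there, and the 3 groups of GNL2 overlap.

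The 3 scaffold and chaperone mRNAs rose in shIMPDH1 and 1 of them, NCL, also rose in shIMPDH2. NPM1 (nucleophosmin), the histone and assembly chaperone of the outer nucleolus, was at 1284, 1459 and 1432 CPM in shControl, 1473, 1540.4 and 1535 in shIMPDH1 and 1439.7, 1441 and 1409 in shIMPDH2. ShControl replicate 1 was well below the other control libraries, and the log2 change was 0.12 (SE 0.033, adjusted p = 0.00305) in shIMPDH1 and 0.04 (SE 0.033, adjusted p = 0.381) in shIMPDH2. By DESeq2 the rise of NPM1 in shIMPDH1 missed the threshold (adjusted p = 0.0515). NCL (nucleolin), which binds nascent pre-rRNA, was at 1191, 1315 and 1304 CPM in shControl, 1389, 1415 and 1412 in shIMPDH1 and 1403, 1346 and 1335 in shIMPDH2. It rose by 0.15 (SE 0.030, adjusted p = 2.34e-04) and 0.10 (SE 0.030, adjusted p = 0.00862), and the second call was lost without shControl replicate 1 (0.0522) and shIMPDH2 replicate 1 (0.0501). Without both of these libraries NCL was at 0.03 in shIMPDH2 (adjusted p = 0.208). NOLC1, a phosphoprotein that escorts snoRNPs, was at 193, 201 and 202 CPM in shControl, 224, 229.6 and 227 in shIMPDH1 and 197, 195 and 197 in shIMPDH2. Its rise was seen in shIMPDH1, 0.19 (SE 0.025, adjusted p = 6.62e-07), while shIMPDH2 and shControl overlapped, with -0.02 (SE 0.025, adjusted p = 0.58). Between the knockdowns NOLC1 differed by -0.21 (SE 0.025, adjusted p = 1.12e-07).

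Of the snoRNP proteins in the member list, FBL, NOP56 and NOP58 of box C/D rose in shIMPDH1, and DKC1 of box H/ACA was not called there. Core proteins outside the member list are not described here, so the box types as wholes were not compared. FBL (fibrillarin), the methyltransferase of box C/D snoRNPs, was at 207, 214 and 208 CPM in shControl, 228, 228 and 235 in shIMPDH1 and 223, 201 and 205 in shIMPDH2, and rose by 0.13 (SE 0.031, adjusted p = 7.92e-04) in shIMPDH1. In shIMPDH2 its value was -0.0014 (SE 0.031, adjusted p = 0.978), with shIMPDH2 replicate 1 above both other libraries of that group. NOP56, the most abundant of the 5, was at 550.4, 568 and 558 CPM in shControl, 625, 608 and 619 in shIMPDH1 and 594, 578 and 578 in shIMPDH2, and rose by 0.14 (SE 0.024, adjusted p = 1.52e-05) and 0.06 (SE 0.024, adjusted p = 0.0375). The NOP56 call in shIMPDH2 was lost without shControl replicate 1 (0.0806), shControl replicate 3 (0.0852), shIMPDH2 replicate 1 (0.136), shIMPDH2 replicate 2 (0.0538) and shIMPDH2 replicate 3 (0.0524), and also with upper-quartile scaling (0.0713), no filter (0.0641) or only the groups compared (0.0738). NOP58, its partner in the particle, was at 123, 130.1 and 133 CPM in shControl, 137, 139.6 and 138 in shIMPDH1 and 138, 130.01 and 129 in shIMPDH2. NOP58 rose by 0.10 (SE 0.031, adjusted p = 0.00949) in shIMPDH1, a call lost without shControl replicate 1 (adjusted p = 0.0716), and was at 0.04 (SE 0.031, adjusted p = 0.337) in shIMPDH2. DKC1 (dyskerin), the pseudouridine synthase that is also part of telomerase, was at 182, 184 and 192 CPM in shControl, 185, 185 and 185 in shIMPDH1 and 198, 196 and 195 in shIMPDH2. DKC1 was at -0.01 (SE 0.025, adjusted p = 0.755) in shIMPDH1 and rose by 0.07 (SE 0.025, adjusted p = 0.0202) in shIMPDH2, a call lost without shControl replicate 1 (0.0742), shControl replicate 2 (0.0538) and shIMPDH2 replicate 2 (0.0514). RRP9, which binds the U3 snoRNA, was at 41.2, 40.3 and 40.2 CPM in shControl, 42.2, 42.6 and 44.0 in shIMPDH1 and 41.1, 41.8 and 41.9 in shIMPDH2 and was called in neither knockdown, with 0.08 (SE 0.035, adjusted p = 0.0581) and 0.04 (SE 0.035, adjusted p = 0.457), although upper-quartile scaling called the first (adjusted p = 0.0249).

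Several of these genes also host snoRNA genes, and mature snoRNAs are commonly released from the introns of a spliced host transcript. In GENCODE 29, 7 of the 35 members (20%) had a snoRNA gene on the same strand inside their span, against 255 of 19969 protein-coding genes (1.28%). The hosts are GNL3 with 6 snoRNA genes, NOP56 with 5, NOP58 with 4, NCL and WDR43 with 3 each, and TSR1 and DKC1 with 2 each. In shIMPDH1, GNL3, NOP56, NOP58, NCL and WDR43 rose, TSR1 fell and DKC1 was not called. The GNL3 entries at chr3:52688882-52688961 and chr3:52688890-52688962 overlap each other and were counted separately. Exons of all annotated isoforms were merged, so a snoRNA gene in an intron of 1 isoform can overlap an exon of another. Of the 25 snoRNA genes, 14 lie in introns of the host and 11 overlap a merged exon of it: all 5 of NOP56, both of DKC1, 3 of GNL3 and 1 of NOP58. Reads from those 11 could be counted to the host, which was not tested. The snoRNAs themselves are not polyadenylated and were not analysed here.

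The rRNA-modifying enzymes parted in shIMPDH2. NOP2, a cytosine methyltransferase of 28S rRNA, was at 115, 109.99 and 111 CPM in shControl, 133, 132 and 137 in shIMPDH1 and 121, 117 and 119.5 in shIMPDH2. The shIMPDH1 and shIMPDH2 libraries were all above shControl, and NOP2 rose by 0.26 (SE 0.028, adjusted p = 2.39e-08) and 0.09 (SE 0.028, adjusted p = 0.0163). Its call in shIMPDH2 was lost without shControl replicate 2 (0.0602), shControl replicate 3 (0.0629) and shIMPDH2 replicate 1 (0.0507). NAT10, the cytidine acetyltransferase of 18S rRNA, was at 87.5, 91.1 and 92.6 CPM in shControl, 92.9, 96.8 and 93.6 in shIMPDH1 and 83.4, 81.6 and 84.6 in shIMPDH2. All shIMPDH2 libraries were below all others. NAT10 was at 0.06 (SE 0.030, adjusted p = 0.094) in shIMPDH1, called with upper-quartile scaling (0.0383), and fell in shIMPDH2, at -0.12 (SE 0.030, adjusted p = 0.00238), and the difference between the knockdowns was -0.18 (SE 0.030, adjusted p = 1.51e-05).

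The factors linked to RNA polymerase I were not alike, and HEATR1 was called in opposite directions in the knockdowns. HEATR1 (the counterpart of yeast Utp10, chr1:236549005-236604504, reverse strand) belongs to the subcomplex of the small subunit processome that is needed for rDNA transcription. It was at 184, 184 and 188 CPM in shControl, 201, 203 and 193 in shIMPDH1 and 165, 165 and 165 in shIMPDH2. The 3 shIMPDH2 libraries were below all shControl libraries, and the 3 shIMPDH1 libraries were above them. HEATR1 rose by 0.10 (SE 0.025, adjusted p = 0.00205) in shIMPDH1 and fell in shIMPDH2, at -0.17 (SE 0.026, adjusted p = 6.21e-06), and the knockdowns differed by -0.27 (SE 0.026, adjusted p = 1.53e-09). LGALS8 on the opposite strand covers 23.2% of the exon bases of HEATR1. LGALS8 was at a mean of 51.3 CPM and changed by -0.24 in shIMPDH1 (adjusted p = 7.50e-07) and by -0.03 in shIMPDH2 (adjusted p = 0.483). The part of opposite-strand reads in the HEATR1 values was not tested.

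Within the member list, WDR43 and WDR75 belong to the same subcomplex, and neither followed HEATR1 down. Subunits outside the member list are not described here. WDR43 was at 89.5, 96.3 and 96.1 CPM in shControl, 110.1, 113 and 113 in shIMPDH1 and 100.1, 99.9 and 103 in shIMPDH2, and rose by 0.25 (SE 0.031, adjusted p = 1.31e-07) and 0.11 (SE 0.031, adjusted p = 0.00728). In shIMPDH2 the WDR43 call was lost without shControl replicate 1 (adjusted p = 0.0624). WDR75 was at 75.4, 79.3 and 80.9 CPM in shControl, 87.1, 89.8 and 85.8 in shIMPDH1 and 80.0, 77.1 and 78.4 in shIMPDH2, with 0.16 (SE 0.032, adjusted p = 1.86e-04) in shIMPDH1. Its shIMPDH2 libraries lay within the control range, with a 95% interval of -0.06 to 0.06. DDX21, an RNA helicase that senses the activity of both RNA polymerase I and II, was at 311, 329.7 and 341 CPM in shControl, 341, 341 and 336 in shIMPDH1 and 366, 355 and 357 in shIMPDH2. Its value was 0.05 (SE 0.028, adjusted p = 0.119) in shIMPDH1, called as a rise of 0.08 without shControl replicate 3 (adjusted p = 0.022), and it rose by 0.14 (SE 0.028, adjusted p = 2.92e-04) in shIMPDH2. MYBBP1A, a repressor of rDNA transcription that also takes part in rRNA processing, was at 202, 199 and 201 CPM in shControl, 216, 217 and 211 in shIMPDH1 and 206, 205 and 209.8 in shIMPDH2, with 0.10 (SE 0.024, adjusted p = 0.00176) and 0.04 (SE 0.024, adjusted p = 0.163), the second called with library totals alone (0.0357).

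PES1, BOP1 and WDR12 form the PeBoW complex, which is needed to process the 5.8S and 28S rRNA. All 3 subunits rose in shIMPDH2 (2 without shControl replicate 1), and BOP1 and WDR12 rose in shIMPDH1. BOP1 was at 115, 109.9 and 108 CPM in shControl, 136, 134 and 133 in shIMPDH1 and 119.9, 129 and 127 in shIMPDH2, with no overlap between shControl and either knockdown. It rose by 0.28 (SE 0.030, adjusted p = 2.28e-08) and 0.17 (SE 0.030, adjusted p = 4.18e-05), and the latter was the largest rise of a member in shIMPDH2. WDR12 was at 75.0, 77.3 and 79.8 CPM in shControl, 87.2, 85.4 and 86.4 in shIMPDH1 and 86.9, 85.2 and 82.1 in shIMPDH2, and rose by 0.16 (SE 0.031, adjusted p = 1.43e-04) and 0.13 (SE 0.031, adjusted p = 0.00133). Between the knockdowns WDR12 differed by -0.03 with a 95% interval of -0.09 to 0.03. PES1 was at 148, 151 and 150.04 CPM in shControl, 150.4, 151 and 158 in shIMPDH1 and 154, 157 and 159.6 in shIMPDH2, and its values were 0.03 (SE 0.027, adjusted p = 0.35) and 0.07 (SE 0.027, adjusted p = 0.0487). The PES1 call in shIMPDH2 had the highest adjusted p of the calls there, and it was lost under upper-quartile scaling (0.074), with no filter (0.109), with only the groups compared in the fit (0.067), and without shControl replicate 1 (0.125), shControl replicate 3 (0.0896), shIMPDH2 replicate 2 (0.0986) and shIMPDH2 replicate 3 (0.177).

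Among the other large subunit factors, 5 of 6 rose in shIMPDH1 (4 without shControl replicate 1) and 2 of 6 in shIMPDH2. RRS1, which helps bring the 5S RNP into the pre-60S particle, was at 47.7, 47.1 and 47.9 CPM in shControl, 56.0, 59.2 and 57.9 in shIMPDH1 and 49.0, 48.9 and 47.5 in shIMPDH2. RRS1 rose by 0.28 (SE 0.033, adjusted p = 1.03e-07) in shIMPDH1, while shIMPDH2, at 0.03 (SE 0.034, adjusted p = 0.583), overlapped shControl. The paralogs RRP1 and RRP1B are homologs of yeast Rrp1, and in shIMPDH2 RRP1 was called and RRP1B was not. RRP1B was at 118, 119.9 and 121 CPM in shControl, 142, 139 and 143 in shIMPDH1 and 119, 121 and 123 in shIMPDH2, with 0.24 (SE 0.026, adjusted p = 2.52e-08) and 0.02 (SE 0.027, adjusted p = 0.661). RRP1 was at 42.6, 42.1 and 43.2 CPM in shControl, 49.6, 49.5 and 48.7 in shIMPDH1 and 46.2, 45.9 and 46.8 in shIMPDH2, with 0.21 (SE 0.033, adjusted p = 7.80e-06) and 0.12 (SE 0.033, adjusted p = 0.00512). Thus RRP1 rose in both knockdowns and RRP1B in shIMPDH1, though whether the paralogs differed from each other was not tested. NOP16, a small pre-60S protein and known MYC target, was at 48.0, 50.9 and 48.8 CPM in shControl, 55.3, 54.1 and 59.7 in shIMPDH1 and 50.2, 49.2 and 50.8 in shIMPDH2, and had 0.19 (SE 0.037, adjusted p = 1.13e-04) and 0.02 (SE 0.038, adjusted p = 0.679). NIP7, which acts in pre-rRNA processing, was at 70.4, 77.1 and 73.9 CPM in shControl, 78.3, 79.3 and 81.6 in shIMPDH1 and 77.3, 74.8 and 75.1 in shIMPDH2, with 0.11 (SE 0.033, adjusted p = 0.00787) and 0.04 (SE 0.033, adjusted p = 0.421), and its call in shIMPDH1 was lost without shControl replicate 1 (0.0649) and shIMPDH1 replicate 3 (0.0585). EBNA1BP2, the counterpart of yeast Ebp2, was called in shIMPDH2 and not in shIMPDH1. It was at 97.4, 98.6 and 94.1 CPM in shControl, 99.5, 99.1 and 94.4 in shIMPDH1 and 105, 107 and 100.3 in shIMPDH2, with 0.01 (SE 0.031, adjusted p = 0.777) and 0.10 (SE 0.031, adjusted p = 0.00888), and the second call was lost without shControl replicate 3 (0.0581) and shIMPDH2 replicate 2 (0.0583). Opposite-strand exons cover 18.8 to 20.2% of the exon bases of NIP7, NOP16 and EBNA1BP2. HIGD2A, opposite NOP16 and at a mean of 53.4 CPM, rose with it in shIMPDH1, by 0.22 (adjusted p = 1.22e-05), was at 0.09 in shIMPDH2 (adjusted p = 0.0503), and was lower in shIMPDH2 than in shIMPDH1, by -0.13 (adjusted p = 0.00367). ARL10, also opposite NOP16, was at 6.48 CPM and changed by -0.30 and -0.64 (adjusted p = 0.00325 and 5.25e-07). COG8, opposite NIP7 and at 25.1 CPM, was at 0.09 (adjusted p = 0.11) and fell in shIMPDH2, at -0.14 (adjusted p = 0.0195). The part of opposite-strand reads in these values was not tested.

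On the small subunit side, NOB1 showed the largest rise of any member in shIMPDH1. NOB1 (chr16:69741867-69754940, reverse strand) is the endonuclease that makes the mature 3′ end of 18S rRNA in the cytoplasm. It was at 114, 112 and 115 CPM in shControl, 141, 141 and 144 in shIMPDH1 and 122, 129 and 127 in shIMPDH2, and the 3 groups did not overlap. NOB1 rose by 0.32 (SE 0.027, adjusted p = 2.35e-10) in shIMPDH1 and by 0.15 (SE 0.027, adjusted p = 9.54e-05) in shIMPDH2, and the knockdowns differed by -0.17 (SE 0.027, adjusted p = 7.42e-06). An unnamed gene model on the opposite strand covers 20.2% of its exon bases. PNO1, the partner that covers the NOB1 cleavage site, was at 58.9, 61.1 and 63.5 CPM in shControl, 68.2, 66.1 and 71.1 in shIMPDH1 and 66.7, 62.7 and 63.0 in shIMPDH2, with 0.16 (SE 0.036, adjusted p = 5.03e-04) and 0.07 (SE 0.036, adjusted p = 0.136). RRP12, a HEAT repeat protein of pre-40S export, was at 62.3, 60.7 and 62.3 CPM in shControl, 71.9, 71.3 and 73.5 in shIMPDH1 and 67.8, 63.2 and 68.6 in shIMPDH2. It rose by 0.23 (SE 0.033, adjusted p = 3.12e-06) and 0.11 (SE 0.033, adjusted p = 0.0126), and the second call was lost without shIMPDH2 replicate 3 (adjusted p = 0.0813). LTV1, whose release marks the maturing head of the small subunit, was at 46.9, 50.7 and 50.2 CPM in shControl, 49.9, 49.5 and 48.1 in shIMPDH1 and 50.2, 49.1 and 48.8 in shIMPDH2. Its groups overlapped, with 95% intervals of -0.07 to 0.07 in shIMPDH1 and -0.07 to 0.07 in shIMPDH2.

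Of the 20 members lower in shIMPDH2 than in shIMPDH1, 14 were called under all 16 alternatives, as were 4 of the 6 higher ones (GTPBP4, LSG1, TSR1 and DKC1). Leaving out 1 library ended the call for NPM1, -0.08, without shIMPDH1 replicate 2 (0.148), shIMPDH1 replicate 3 (0.128), shIMPDH2 replicate 2 (0.0616) and shIMPDH2 replicate 3 (0.126), and for PNO1, -0.09, without shIMPDH1 replicate 1 (0.0588), shIMPDH1 replicate 3 (0.214), shIMPDH2 replicate 2 (0.138) and shIMPDH2 replicate 3 (0.119). RRP1, -0.09, lost it without shIMPDH1 replicate 1 (0.0743), shIMPDH1 replicate 2 (0.0779), shIMPDH2 replicate 1 (0.0546) and shIMPDH2 replicate 2 (0.0846). BOP1, -0.10, lost it without shIMPDH2 replicate 1 (adjusted p = 0.0526), and RRP12, -0.12, without shIMPDH2 replicate 2 (adjusted p = 0.0609). DDX21, 0.08, lost it without shIMPDH1 replicate 3 (0.0758) and shIMPDH2 replicate 1 (0.0623), and EBNA1BP2, 0.09, without shIMPDH1 replicate 3 (0.14) and shIMPDH2 replicate 2 (0.0982). Library totals alone in place of TMM ended the calls of NPM1 (0.114), NOP56 (0.0518), BOP1 (0.0622), RRP1 (0.131) and PNO1 (0.149), DESeq2 those of NPM1 (0.24), RRP1 (0.0805) and PNO1 (0.0764), and upper-quartile scaling those of DDX21 (0.087) and EBNA1BP2 (0.0751). NOP58 and NIP7, not called here, were lower in shIMPDH2 without shIMPDH2 replicate 1, by -0.09 (adjusted p = 0.0163) and -0.09 (adjusted p = 0.0446). The largest differences in this comparison were those of HEATR1, -0.27, RRS1, -0.25, RRP1B, -0.22, and NOLC1, -0.21, all of them kept.

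**Figure D4:**
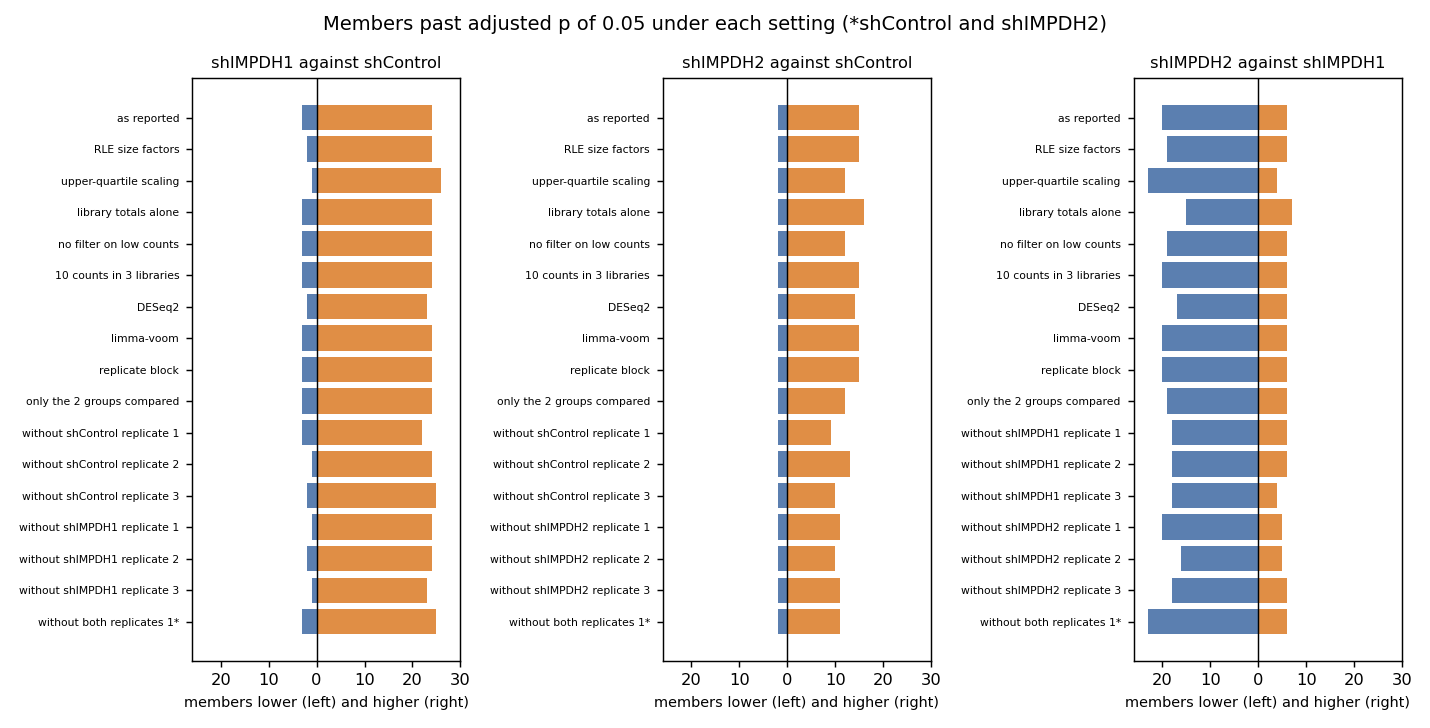
Number of members past an adjusted p of 0.05 in each comparison, lower to the left of 0 and higher to the right, as reported and under each alternative setting. Rises in shIMPDH1 stay between 22 and 26, and rises in shIMPDH2 lie between 9 and 16.

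In control cells the levels, as CPM per kilobase of merged exons, spanned from 364 ± 24.6 (SD, n = 3) for NPM1 to 7.25 ± 0.108 for RRP12, with a median of 25.7. NPM1 was followed by NCL at 183 ± 9.95, NOP56 at 104 ± 1.68 and FBL at 96.5 ± 1.88, the proteins that are built into the nucleolus and the snoRNPs in large amounts. NOP56 and FBL were neighbours within 10% of each other. A length that merges all annotated isoforms can shift the order of any members, not of such neighbours alone, and by how much was not tested. The nuclease NOB1 was at 53.7 ± 0.691, above GNL3 at 37.2 ± 1.16 and GNL3L at 9.74 ± 0.135. Thus nucleostemin was at a higher level per length than its paralog.

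**Figure D5:**
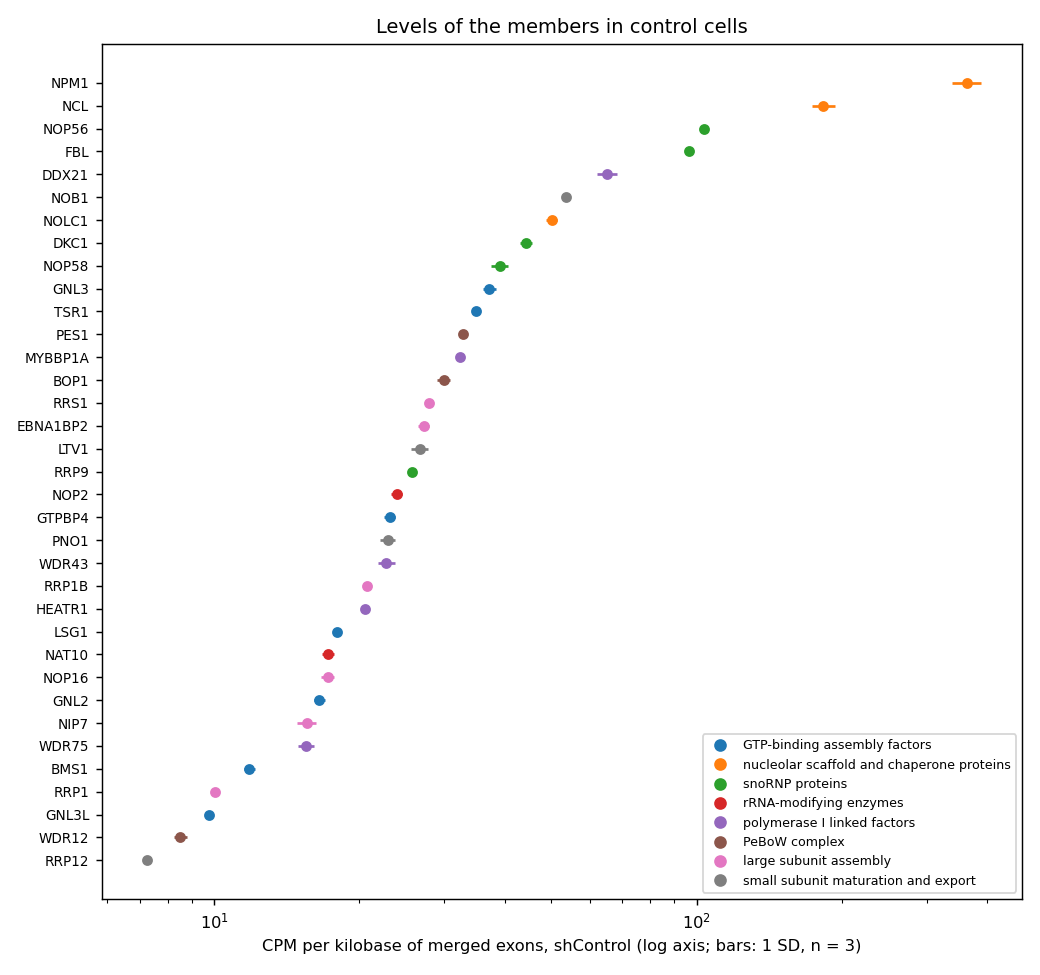
CPM per kilobase of merged exons of each member in shControl, on a log axis, with bars of 1 SD over 3 libraries and colours for roles. NPM1 and NCL stand above all others, and most members lie between 10 and 60.

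A list of 130 other ribosome biogenesis genes was examined beside the members, none of which it holds. It too was chosen with earlier results of these data known. Its counts include genes of very low level, such as PWP2 at 0.0645 to 0.358 CPM and DDX47 at 0.519 to 1.27 CPM. In shIMPDH1 54 rose and 11 fell, 65 missed the threshold, and the median gene changed by a log2 of 0.06, beside 20.6% and 22.8% of all tested genes that rose and fell. In shIMPDH2 38 rose and 13 fell, 79 missed the threshold, and the median was 0.03, beside 18.6% and 19.9% of all genes. By role, 17 of 40 processome genes rose in shIMPDH1 and 5 fell, 17 of 44 pre-60S genes rose and 1 fell, and 8 of 14 snoRNP assembly genes rose and 0 fell. Of 17 genes of the exosome and rRNA trimming 8 rose and 3 fell, and of 15 genes of export and cytoplasmic maturation 4 rose and 2 fell. In shIMPDH2 the same 5 roles had 10 and 5, 18 and 4, 2 and 1, 3 and 1, and 5 and 2 genes that rose and fell.

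NMD3, the export adaptor of the large subunit that LSG1 releases, fell in shIMPDH1 and rose in shIMPDH2, as LSG1 did. It was at 58.8, 61.2 and 60.8 CPM in shControl, 42.2, 44.4 and 43.4 in shIMPDH1 and 73.2, 73.1 and 75.8 in shIMPDH2, with no overlap between the groups. The log2 change of NMD3 was -0.48 (SE 0.034, adjusted p = 5.47e-12) in shIMPDH1, 0.30 (SE 0.032, adjusted p = 2.30e-08) in shIMPDH2 and 0.77 (SE 0.033, adjusted p = 1.15e-16) between them. LAS1L, the endonuclease that cuts the second internal spacer of pre-rRNA, had a mean of 44.8 CPM in shControl, 59.8 in shIMPDH1 and 44.7 in shIMPDH2. LAS1L rose by 0.42 (SE 0.033, adjusted p = 3.93e-11) in shIMPDH1 and was at -0.00081 (SE 0.033, adjusted p = 0.988) in shIMPDH2. EXOSC3, a cap subunit of the RNA exosome, was at 45.8 CPM in shControl, 31.5 in shIMPDH1 and 47.3 in shIMPDH2, and its fall was -0.54 (SE 0.037, adjusted p = 2.75e-12) in shIMPDH1. EXOSC7, of the exosome ring, rose there by 0.29, as did NOP53 by 0.30 and NAF1, an assembly factor of box H/ACA snoRNPs, by 0.30. RPAP3, the R2TP subunit that assembles box C/D snoRNPs and RNA polymerases, was the gene of this list that fell most in shIMPDH2. Its mean was 69.7 CPM in shControl, 71.0 in shIMPDH1 and 36.9 in shIMPDH2, a change of -0.91 (SE 0.039, adjusted p = 1.26e-16), with 0.03 (SE 0.036, adjusted p = 0.60) in shIMPDH1. The processome proteins UTP11 and MPHOSPH10 went apart in shIMPDH2, by 0.40 (SE 0.040, adjusted p = 4.14e-09) and -0.32 (SE 0.029, adjusted p = 1.02e-09). METTL5, the 18S rRNA adenosine methyltransferase, rose there by 0.40 (SE 0.035, adjusted p = 5.57e-10). DDX18, a pre-60S helicase, rose in shIMPDH1 by 0.18 (SE 0.028, adjusted p = 6.37e-06) and fell in shIMPDH2, at -0.19 (SE 0.028, adjusted p = 4.16e-06), as HEATR1 did.

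MYC, a transcription factor known to drive nucleolar genes, was at 72.0, 68.6 and 71.8 CPM in shControl, 124, 124 and 124 in shIMPDH1 and 80.4, 83.1 and 89.7 in shIMPDH2. Its libraries did not overlap between groups, and MYC mRNA rose by 0.81 (SE 0.034, adjusted p = 1.25e-16) in shIMPDH1 and by 0.25 (SE 0.034, adjusted p = 1.19e-06) in shIMPDH2. The order of the groups was that of the members' summed share of counts, and whether MYC had a part in the members' values was not tested. MAX, its partner, was at 0.11 (adjusted p = 0.0681) and 0.03 (adjusted p = 0.695).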

How the data were processed

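Polyadenylated RNA of 9 Huh7 libraries was sequenced with a strand-specific kit, per the labels' protocols. The submitters' processing notes list Trim Galore, cutadapt, STAR, featureCounts and hg38, with no version. Which annotation and strand setting were used for counting, and how reads with several positions were treated, is not given in the sources used here. Raw gene counts, whole numbers with no normalisation, are what the authors deposited.

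The counts were analysed with edgeR 4.0.16 (R 4.3.3): filterByExpr by group, which kept 17396 genes and at least 99.95% of each library's counts, TMM scaling and 1 quasi-likelihood model of all 9 libraries with the group as its term. Adjusted p is by Benjamini-Hochberg over these genes, and SE is the size of the log2 change divided by the square root of F. The fit was tested on simulated data. Groups came from the sample titles. DESeq2 1.42.0, limma 3.58.1 voom, other scalings and filters, and leaving out each library were alternatives.

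The members and gene lists were chosen with earlier results of these data known. The naming rule asked for values in every library for the 7 GTP-binding members and the 10 other called members of largest change, for up to 4 rising and 4 falling other genes per knockdown, and for 7 regulators, 1 of which is not reported here; values of further members were added after they were seen. Of 130 other biogenesis genes, 7 were matched through older symbols. Gene positions are from GENCODE 29 (GRCh38), and promoter windows and their coordinates from RefSeq (GRCh38.p14).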

Additional observations from a re-analysis of the deposited data

How the results depend on the processing

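The members that rose in shIMPDH1 numbered 22 to 26 over the alternatives, those in shIMPDH2 9 to 16, and those lower in shIMPDH2 than in shIMPDH1 15 to 23; 21 of the 24 that rose in shIMPDH1 and 6 of the 15 in shIMPDH2 kept their call in all 16, as did NAT10 and HEATR1. With single libraries left out, 22 to 25 rose and 1 to 3 fell in shIMPDH1, and 9 to 13 rose and 2 fell in shIMPDH2. Upper-quartile scaling left 1 that fell in shIMPDH1, and the cause was not tested. No called member changed direction. Of 53 called values of other named genes, 51 were called the same way in every alternative, the others being NOP53 and ISG20L2 in shIMPDH2. The calls of all genes ranged from 6410 to 7735, 5592 to 6854 and 6580 to 7852 in the 3 comparisons. Each member had 1188 counts or more in every library, and what limited the calls was not tested.

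Same-numbered libraries of different groups had correlations of their deviations from -0.0861 to 0.0888, and differently numbered ones from -0.0840 to 0.107. These correlations cannot decide whether libraries of the same number were prepared together. With the replicate number as a block, 24 members rose and 3 fell in shIMPDH1, 15 rose and 2 fell in shIMPDH2, and 6 were higher and 20 lower in shIMPDH2 than in shIMPDH1, while all calls numbered 7735, 6854 and 7852.

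Values near 0 that were not called changed sign, on the log2 scale, as follows, and the cause was not tested. With upper-quartile scaling these were GNL2 0.0070, DKC1 0.0029, LTV1 0.012 (shIMPDH1), WDR75 -0.0065, LTV1 -0.0028 (shIMPDH2), LTV1 -0.015 (shIMPDH2 against shIMPDH1). With library totals these were TSR3 -0.0038 (shIMPDH1), GNL2 0.0053, FBL 0.018, LAS1L 0.019, RPL11 0.0075 (shIMPDH2), GNL2 0.021, WDR12 0.0013 (shIMPDH2 against shIMPDH1). With RLE these were FBL 0.0023, LAS1L 0.0029 (shIMPDH2). With DESeq2 these were FBL 0.0022, LAS1L 0.0029 (shIMPDH2). With no filter these were TSR3 -0.0026 (shIMPDH1), WDR75 -0.0033 (shIMPDH2). With only the 2 groups compared in the fit these were WDR75 -0.00091 (shIMPDH2), GNL2 0.0034 (shIMPDH2 against shIMPDH1). With both outlying libraries left out these were RPAP3 -0.0013 (shIMPDH1), TSR1 -0.014, NPM1 -0.022, NOP58 -0.023, WDR75 -0.043, NIP7 -0.013, LTV1 -0.043, LAS1L 0.0031, MAX -0.011 (shIMPDH2), LTV1 -0.0057 (shIMPDH2 against shIMPDH1). For values that changed sign when 1 library was left out, the range over those fits is given. In shIMPDH1 against shControl the ranges were GNL2 -0.029 to 0.0079, DKC1 -0.027 to 0.0097, EBNA1BP2 -0.0067 to 0.037, LTV1 -0.037 to 0.017, RPAP3 -0.0014 to 0.054, TSR3 -0.038 to 0.027. In shIMPDH2 against shControl the ranges were GNL2 -0.036 to 0.011, TSR1 -0.0034 to 0.025, NPM1 -0.016 to 0.083, FBL -0.0498 to 0.029, WDR75 -0.029 to 0.021, LTV1 -0.031 to 0.034, LAS1L -0.0069 to 0.0105, EXOSC7 -0.067 to 0.0032, MAX -0.014 to 0.058, RPL11 -0.042 to 0.016. In shIMPDH2 against shIMPDH1 the ranges were GNL2 -0.016 to 0.0047, LTV1 -0.0093 to 0.017.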

Other observations

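MDM2, a ubiquitin ligase, is bound by free RPL5 and RPL11 when ribosome assembly fails, and these mRNAs and that of CDKN1A were measured in the same libraries. CDKN1A, an inhibitor of cyclin-dependent kinases, was at 16.9, 17.6 and 16.0 CPM in shControl, 10.0, 9.99 and 10.2 in shIMPDH1 and 7.5, 8.13 and 8.45 in shIMPDH2. It fell in both knockdowns, at -0.74 (SE 0.059, adjusted p = 5.73e-11) in shIMPDH1 and -1.07 (SE 0.061, adjusted p = 7.15e-14) in shIMPDH2. MDM2 was at 53.0, 51.1 and 53.0 CPM in shControl, 73.5, 72.1 and 70.4 in shIMPDH1 and 86.2, 79.3 and 79.6 in shIMPDH2. It rose in both knockdowns, by 0.46 (SE 0.035, adjusted p = 2.82e-11) and 0.64 (SE 0.035, adjusted p = 2.64e-14). RPL5 was at 0.18 (SE 0.027, adjusted p = 6.15e-06) and -0.04 (SE 0.027, adjusted p = 0.321), the second called without shControl replicate 1 (-0.07, adjusted p = 0.0184). RPL11 was at 0.10 (SE 0.027, adjusted p = 0.005) and -0.01 (SE 0.027, adjusted p = 0.764), though ribosomal protein mRNAs have many processed pseudogenes that can take their reads. Thus CDKN1A and MDM2 went in opposite directions in each knockdown, and protein levels were not measured.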
